A study of Mus musculus with 22 samples.

Results

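The 14-3-3 proteins are small acidic adaptors that work as dimers and dock on serines or threonines that protein kinases have phosphorylated. Docking holds a client protein in the cytoplasm, blocks its active site or keeps it away from other partners, and the clients include the CDC25 phosphatases of the cell cycle, the RAF kinases, the FOXO factors, BAD and YAP. Stratifin, the sigma member, is encoded by Sfn. It is known from epithelia, pairs mostly with itself, and in human cells is induced by p53 and holds the mitotic cyclin-dependent kinase in the cytoplasm. In mice a mutation of Sfn causes repeated epilation, with a skin that fails to differentiate.

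The family has 7 genes in the mouse: Sfn, Ywhab (beta), Ywhae (epsilon), Ywhag (gamma), Ywhah (eta), Ywhaq (theta) and Ywhaz (zeta). They were picked out by symbol, although the family itself was chosen with earlier results of these data known, and all 7 were found among the 21881 symbols of the count table. The data are RNA sequencing of 8 single mouse blastocysts, taken at embryonic day 3.5, and of 7 stem cell lines. The embryos were 4 Nanog-null (2 female and 2 male), 2 heterozygous (1 of each sex) and 2 wild type (1 of each sex). Nanog encodes a homeodomain factor of the pluripotent epiblast. The lines, all wild type for Nanog, were 2 embryonic stem (ES) lines labelled serum free (F1 female, M2 male), 3 trophoblast stem (TS) lines (F1 and F2 female, M3 male) and 2 extraembryonic endoderm (XEN) lines (M1 and M2, both male). They stand for the epiblast, the trophectoderm and the primitive endoderm. The labels give no strain, allele design or culture details beyond this. Each line had 2 libraries from different passages, so the line and not the library is the replicate. Embryo libraries came from amplified cDNA made with another kit than the line libraries, and levels in embryos and lines were therefore not compared with each other.

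Libraries held between 14.8 M and 32.2 M counts in embryos (M, 1000000 counts) and between 8.20 M and 23.7 M in lines. Nanog, in CPM (counts scaled to 1000000 a library), was 0.300 to 0.624 in the 4 null embryos, 53.6 and 87.6 in the heterozygous embryos and 107 and 137 in the wild-type embryos. The lines carried the markers of their labels. The summed level of 8 epiblast markers was 7349 to 7746 CPM in ES libraries, 364 to 879 CPM in TS libraries and 10.8 to 16.8 CPM in XEN libraries. The sum of 8 trophectoderm markers was 106 to 185 CPM in ES, 3002 to 9067 CPM in TS and 764 to 1219 CPM in XEN libraries. That of 8 primitive endoderm markers was 136 to 243.5 CPM in ES, 570 to 1183 CPM in TS and 23810 to 35440 CPM in XEN libraries. Genes of all 3 sets were detected in embryos, but most of their primitive endoderm sum was Dab2. Dab2 averaged 1317 CPM in null, 1356 CPM in heterozygous and 1546 CPM in wild-type embryos. Gata4 averaged 0.871, 8.05 and 6.89 CPM in the same groups, and Sox7 was at 0 in heterozygous and wild-type embryos. The primitive endoderm sum in embryos therefore says little about the other genes of that set. These are bulk samples, so fewer cells of a type and less RNA per cell cannot be told apart. Nothing in the labels says how far embryos or lines were independent. The p-values set a difference against the spread between these samples and take the samples as independent.

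The upstream sequences of Sfn and Ywhae are shown because Sfn varied most between the lines, whereas Ywhae had the highest level per kilobase of the family in each of them. Each is the 250 bases before the annotated start (RefSeq, GRCm38.p6), 5′ to 3′ on the gene's strand, with CpG dinucleotides in capitals. Sfn lies on chr4:133602169-133602418, minus strand, and Ywhae on chr11:75732637-75732886, plus strand.
Sfn: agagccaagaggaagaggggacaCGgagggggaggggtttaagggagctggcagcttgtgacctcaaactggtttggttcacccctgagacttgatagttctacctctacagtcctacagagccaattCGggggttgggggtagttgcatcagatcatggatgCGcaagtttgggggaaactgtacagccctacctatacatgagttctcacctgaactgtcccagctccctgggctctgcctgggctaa
Ywhae: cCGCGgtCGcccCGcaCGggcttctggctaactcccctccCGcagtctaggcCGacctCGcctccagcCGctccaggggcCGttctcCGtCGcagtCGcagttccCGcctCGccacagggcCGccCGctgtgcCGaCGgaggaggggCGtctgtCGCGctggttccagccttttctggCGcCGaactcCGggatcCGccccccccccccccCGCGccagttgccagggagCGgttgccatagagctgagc
The Sfn window held 3 CpG, and 29.0% of 32851 RefSeq promoters held fewer. The Ywhae window held 29 CpG, and 93.2% of the promoters held fewer. The RefSeq table had 5 of the 7 members, and the windows of Ywhag, Ywhah and Ywhaq held 16, 29 and 24 CpG, against a median of 6 over all promoters. On both strands of the Sfn window a search found 1 CCAAT, which 33.8% of promoters also held. It found no TATAAA (held by 12.4% of promoters), GGGCGG (32.7%), GGAATG (12.6%), AGATAA (9.99%), GCCNNNGGC (13.7%) or p53 half-site (7.13%). The Ywhae window held 2 GGGCGG and none of the other 6 motifs. A match or its lack is a description of these letters only.

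Sfn separated the 3 lineages. Its level was lower in ES than in TS lines, and it was close to absent from XEN lines. In the ES libraries it reached 39.6 and 21.4 CPM in the passages of line F1 and 45.4 and 57.3 CPM in those of line M2. The TS libraries held 216 and 120 CPM in line F1, 186 and 172 CPM in line F2 and 325 and 346 CPM in line M3. The XEN libraries held 0.143 and 0.0845 CPM in line M1 and 0.154 and 0.395 CPM in line M2, which were 2, 2, 3 and 5 counts. No library of one lineage overlapped another, and TS line M3 stood above the other TS lines.

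Over lines, Sfn averaged 40.9 ± 14.7 CPM in ES (SD, n = 2), 227.5 ± 93.7 CPM in TS (n = 3) and 0.194 ± 0.114 CPM in XEN (n = 2). A quasi-likelihood test in edgeR, adjusted by Benjamini-Hochberg over 14687 genes, put all 3 differences under the threshold of 0.05, and genes that pass it are said to be called. The log2 fold change was -2.58 in ES against TS (SE 0.45, adjusted p = 0.0045). It was 7.49 in ES against XEN (SE 0.66, adjusted p = 0.000217) and 10.07 in TS against XEN (SE 0.70, adjusted p = 0.000102). Since XEN libraries held so few reads of Sfn, its fold over XEN is better given as a ratio of pooled CPM. That ratio was 239 in ES over XEN (95% exact interval 136 to 463.5) and 1276 in TS over XEN (730 to 2470). In ES over TS it was 0.187 (0.177 to 0.198). These intervals cover counting error only. Without XEN line M2, the log2 fold change was 8.17 in ES against XEN and 10.76 in TS against XEN, and both calls held.

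In 2 of the well-covered lines Sfn differed between passages by more than any Ywha gene did in any line. The higher passage exceeded the lower by 1.85-fold in ES line F1, 1.80-fold in TS line F1 and 1.06- to 1.26-fold in ES line M2 and TS lines F2 and M3. In the XEN lines, with 2 to 5 counts a library, the ratios were 1.70 and 2.57. The 6 Ywha genes gave 42 such ratios over the 7 lines, between 1.01 and 1.36 with a median of 1.06. This is a description, and the difference was not tested.

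Summed trophoblast markers ran high in the same TS line as Sfn. Line M3 held 9067 and 7145 CPM of the trophectoderm markers and 2354 and 4110 CPM of 8 markers of differentiated trophoblast. Lines F1 and F2 held 3002 to 3745 CPM of the trophectoderm markers and 638 to 1473 CPM of the differentiated ones. Averaged over the TS lines (SD, n = 3), Krt18 at 2017 ± 1151 CPM and Krt8 at 1678 ± 1416 CPM made up most of the first sum. Hand1, at 1302 ± 414 CPM, made up most of the second. Within the trophectoderm list Cdx2 and Elf5 spread less, at 108 ± 19.8 and 224 ± 52.4 CPM, while Krt7 was at 321 ± 209 CPM. All 8 genes of the second list were detected in TS lines, and their part in the level of Sfn was not tested. Without line M3 the log2 fold change of Sfn was -2.12 in ES against TS, with an adjusted p of 0.00347. Fibroblast or feeder markers summed to 68.6 to 376 CPM in TS libraries, 33.5 to 38.3 CPM in ES and 56.0 to 95.7 CPM in XEN. The 2 passages of TS line F2 held both the highest and the lowest of the TS values. Line M3 held 238 and 125.5 CPM and line F1 82.2 and 112 CPM. The part of the feeder markers in the level of Sfn was not tested. Blood markers summed to 402 to 693 CPM in ES libraries, 109 to 883 CPM in TS libraries and 0.634 to 1.57 CPM in XEN libraries, so that they too were near absent where Sfn was. Within TS they were higher in line F2 (883 and 684 CPM) than in line M3 (109 and 215 CPM), unlike Sfn. In ES and TS most of the sum was Laptm5, a lysosomal protein gene of blood cells. It was at 538 ± 165.5 CPM in ES (SD, n = 2) and 375 ± 342 CPM in TS lines (n = 3). In XEN lines Laptm5 was at 0.233 ± 0.0919 CPM (n = 2), a smaller part of the sum. Of the 6 blood markers Ptprc, Lyz2 and Tyrobp were at 0 in ES libraries, and the part of these markers in the level of Sfn was not tested.

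**Figure D1:**
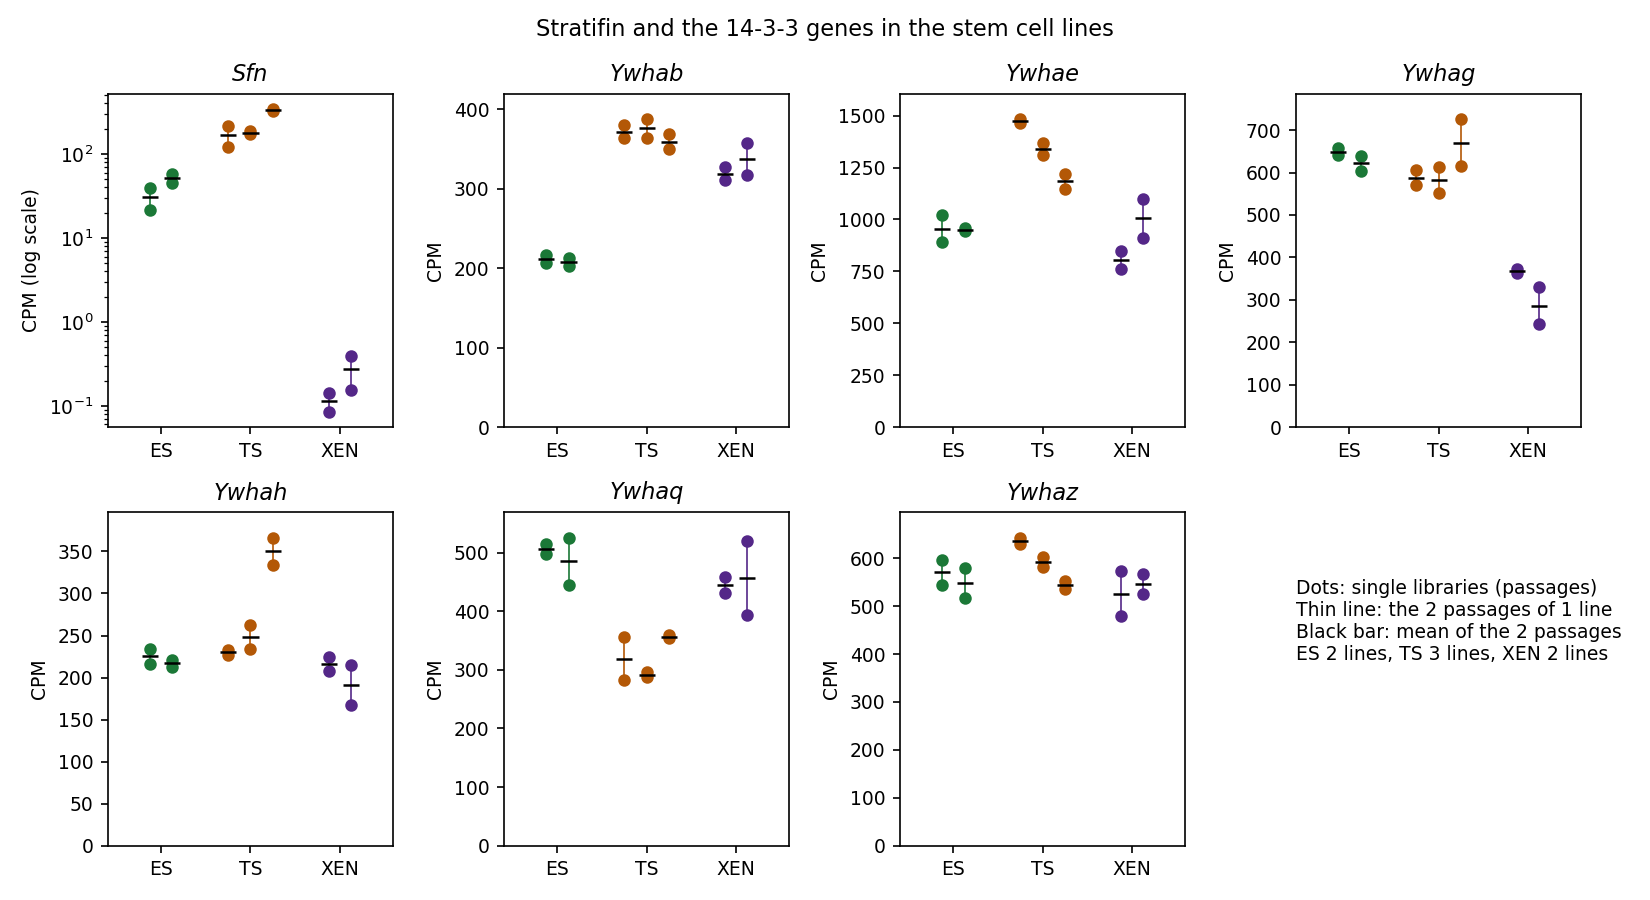
CPM of the 7 family members in each library of the ES, TS and XEN lines, on a log axis for Sfn and a linear axis from 0 for the rest. Dots are libraries, a thin line joins the 2 passages of a line and a black bar is their mean; Sfn ranged from 0.0845 CPM in XEN to 346 CPM in TS.

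The 6 Ywha genes were expressed in every line, and each of their lineage differences was small beside that of Sfn. Ywhab, which binds RAF kinases, was lowest in ES lines. It held 203 to 216 CPM in ES libraries, 350 to 387 CPM in TS libraries and 310 to 357 CPM in XEN libraries. ES libraries lay below all others, while TS and XEN overlapped. The log2 fold change was -0.89 in ES against TS (SE 0.15, adjusted p = 0.00342) and -0.97 in ES against XEN (SE 0.16, adjusted p = 0.00243). In TS against XEN it was -0.09, with a 95% interval of -0.42 to 0.24.

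Ywhaq, the theta member, was lowest in TS lines. It held 445 to 525 CPM in ES libraries, 282 to 359 CPM in TS libraries and 394 to 519 CPM in XEN libraries. TS libraries lay below all others and ES overlapped XEN. The log2 fold change was 0.55 in ES against TS (SE 0.17, adjusted p = 0.0380) and -0.72 in TS against XEN (SE 0.17, adjusted p = 0.0148). In ES against XEN it was -0.17, with an interval of -0.62 to 0.27. The call in ES against TS was lost when any one of ES F1, ES M2, TS F1, TS F2, XEN M1 or XEN M2 was left out or low counts were not filtered, and that in TS against XEN without TS F2, XEN M1 or XEN M2 or with sex as a term.

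Ywhag, whose human gene is linked to childhood epilepsy, was lowest in XEN lines. It held 604.5 to 657 CPM in ES libraries, 553 to 726 CPM in TS libraries and 243 to 372.5 CPM in XEN libraries. XEN libraries lay below all others and ES lay within the TS range. The log2 fold change was 0.64 in ES against XEN (SE 0.21, adjusted p = 0.0377) and 0.66 in TS against XEN (SE 0.19, adjusted p = 0.0312). In ES against TS it was -0.02, with an interval of -0.46 to 0.42. Both calls were lost when ES F1, ES M2, TS F2 or XEN M2 was left out or sex was a term, and that in ES against XEN also without TS F1 or with no filter on low counts. The XEN lines were both male, so sex and lineage overlap there.

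Ywhae, which in neurons protects the phosphorylated client NDEL1, was highest in TS lines. It held 891 to 1020 CPM in ES libraries, 1149 to 1483 CPM in TS libraries and 759 to 1099 CPM in XEN libraries. TS libraries lay above all others and XEN spanned the ES range. The log2 fold change was -0.54 in ES against TS (SE 0.16, adjusted p = 0.0329). It did not pass in ES against XEN (-0.24, interval -0.65 to 0.18) or in TS against XEN (0.31, interval -0.07 to 0.69). The call in ES against TS was lost without ES F1, ES M2, TS F1 or TS F2.

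Ywhah and Ywhaz passed in no pair of lineages. Ywhah, the eta member, held 212 to 234 CPM in ES libraries, 227 to 366 CPM in TS libraries and 167 to 224 CPM in XEN libraries. Its highest values, 366 and 334 CPM, came from TS line M3. The log2 fold changes were -0.40 in ES against TS (interval -0.97 to 0.17), -0.20 in ES against XEN (-0.81 to 0.42) and 0.21 in TS against XEN (-0.36 to 0.77). Ywhaz, the zeta member, held 516 to 597.5 CPM in ES libraries, 535 to 643 CPM in TS libraries and 480 to 573 CPM in XEN libraries, and all 3 ranges overlapped. Its log2 fold changes were -0.14 (interval -0.48 to 0.20), -0.27 (-0.64 to 0.10) and -0.13 (-0.46 to 0.21) in the same order of comparisons. Ywhaz thus spanned the narrowest range of lineage means, 559 ± 15.9 CPM in ES (SD, n = 2), 591 ± 46.5 CPM in TS (n = 3) and 537 ± 14.4 CPM in XEN (n = 2).

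In ES against TS, 4 of 7 members were called, where 41.3% of all tested genes were. Of these Ywhaq was higher in ES, with 20.0% of all genes called higher, and Sfn, Ywhab and Ywhae were lower, with 21.3% called lower. In ES against XEN, 3 members were called, against 45.1% of all genes. Sfn and Ywhag were higher in ES (23.4% of genes) and Ywhab lower (21.8%). In TS against XEN, 3 members were called, against 36.7% of all genes. Sfn and Ywhag were higher in TS (20.3% of genes) and Ywhaq lower (16.4%). Set beside these shares, the counts of members called do not stand out. The 3 pairs share their samples.

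**Figure D2:**
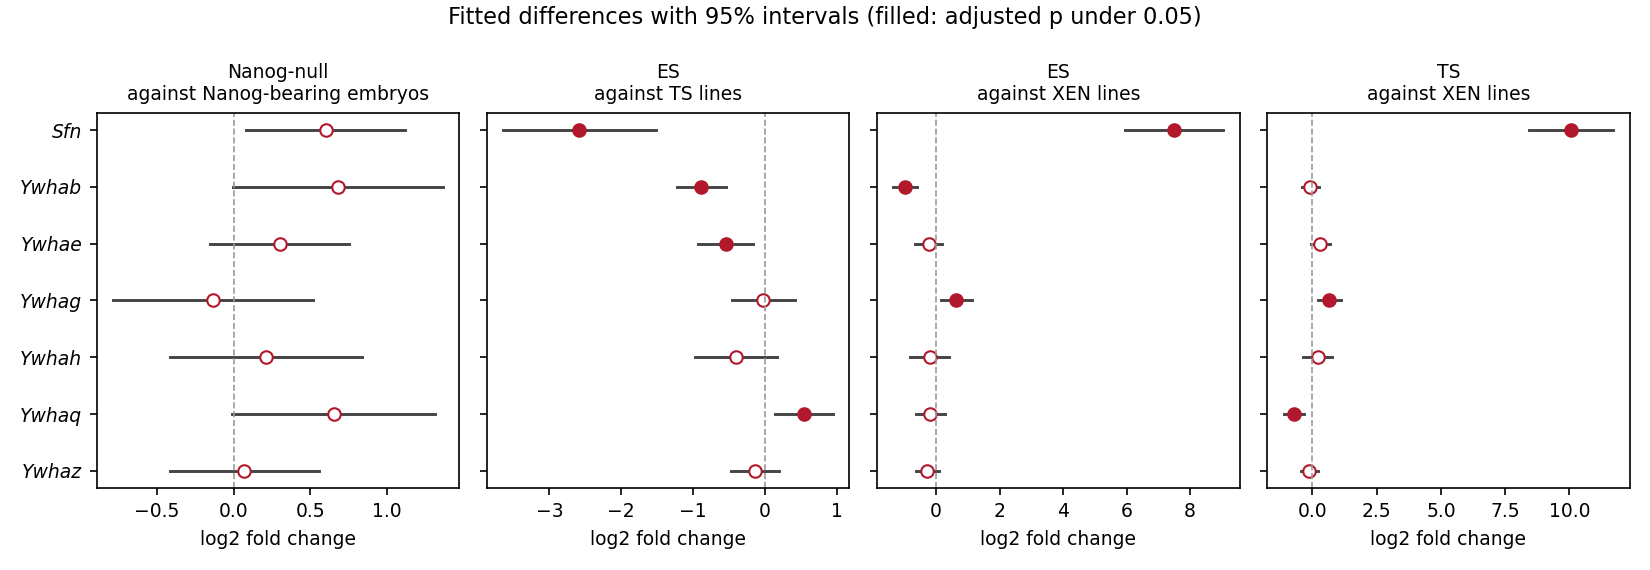
Fitted log2 fold changes (x axes, on a different scale in each panel) of the 7 members with 95% intervals in 4 comparisons, filled where the adjusted p was under 0.05. Sfn reached 7.49 in ES against XEN and 10.07 in TS against XEN, and none of the 7 points is filled for Nanog-null against Nanog-bearing embryos.

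Per kilobase of annotated exon, which allows genes to be set beside each other, the make-up of the family was worked out within embryos and within lines. The kits differ, so shares and ranks in embryos are given beside those in lines and not compared with them. Exon lengths ran from 1613 bases in Sfn to 5500 bases in Ywhag. In lines Ywhae had the largest share of the family's CPM per kilobase, at 39.9 ± 0.18% in ES (SD, n = 2), 43.2 ± 5.29% in TS (n = 3) and 41.7 ± 4.05% in XEN (n = 2). Sfn made up 2.73 ± 0.98% in ES, 11.6 ± 4.48% in TS and 0.0137 ± 0.0072% in XEN. Among embryos Sfn had the largest mean share in each genotype, 36.5 ± 4.07% in null (n = 4), 31.2 ± 4.20% in heterozygous (n = 2) and 33.1 ± 0.81% in wild-type embryos (n = 2). Ywhae followed at 23.5 ± 2.46%, 25.0 ± 1.94% and 25.1 ± 2.04% of the same 3 groups. This order depends on the division by exon length. Before it, Sfn averaged 1299, 974 and 889 CPM in these groups. Ywhaz, at 1595, 1894 and 1430 CPM, and Ywhae, at 1311, 1248 and 1069 CPM, were higher.

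Among all detected genes, ranked by CPM per kilobase, Sfn stood between 43rd and 93rd in null embryos. It stood 88th and 107th in heterozygous and 95th and 114th in wild-type embryos. These places are within the top 0.351% to 0.937% of detected genes. In the lines its place was 1436th to 3686th in ES, 239th to 626th in TS and 10063rd to 11535th in XEN libraries. Ywhae stood between 108th and 150th in embryo libraries and, in lines, between 62nd and 126th.

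The family's summed level was 3115 ± 46.0 CPM in ES (n = 2), 3732 ± 105 CPM in TS (n = 3) and 2751 ± 103 CPM in XEN lines (n = 2). Without Sfn the sums were 3074 ± 60.8 CPM in ES, 3505 ± 99.4 CPM in TS and 2751 ± 103 CPM in XEN lines. The sums were not tested.

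**Figure D3:**
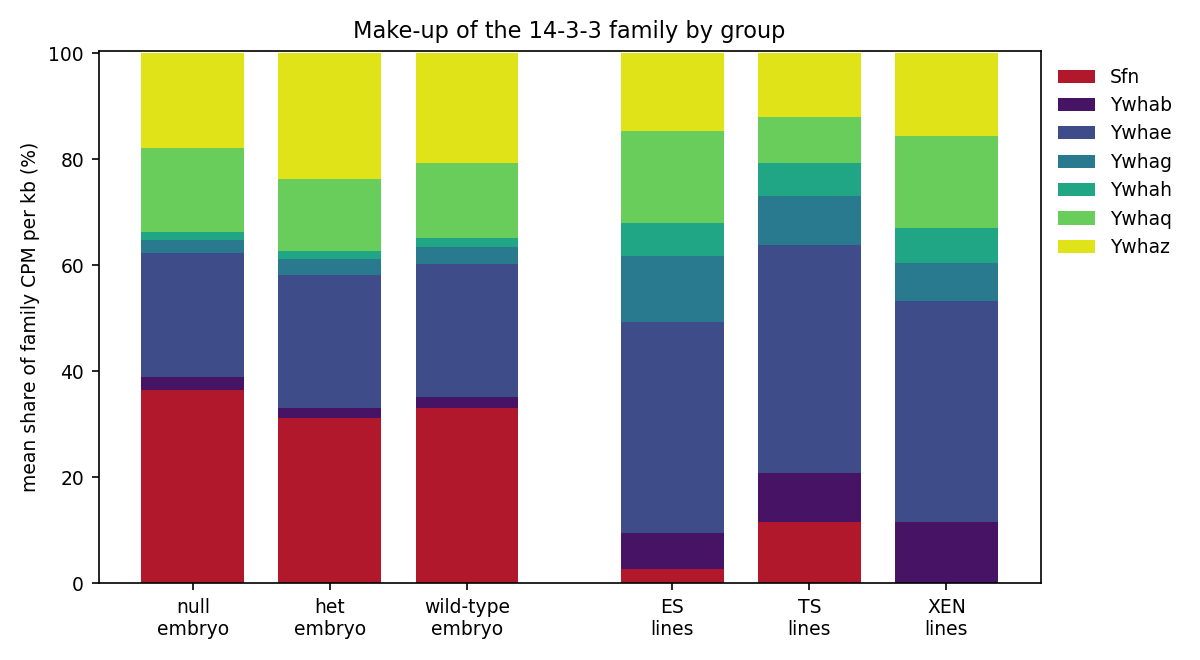
Mean share of each member in the family's CPM per kilobase (y axis, percent) for null, heterozygous and wild-type embryos and, not to be compared with them because of the kits, for ES, TS and XEN lines. Sfn, in red at the base, made up 36.5%, 31.2% and 33.1% of the 3 embryo groups and 2.73%, 11.6% and 0.0137% of the lines.

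In embryos the question was whether the family differs when Nanog is absent. Sfn was abundant in every embryo. It held 1031, 1744, 1195 and 1227 CPM in nulls F1, F2, M1 and M2, 895 and 1052 CPM in the female and male heterozygous embryos, and 823 and 955.5 CPM in the female and male wild-type embryos. All nulls lay above the other embryos of their own sex, but across the sexes null F1 lay below the heterozygous male. The mean was 1299 ± 309 CPM in null embryos (SD, n = 4), against 931.5 ± 97.0 CPM in the Nanog-bearing embryos, heterozygous and wild type together (n = 4).

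With sex as a term, the log2 fold change of Sfn in null against Nanog-bearing embryos was 0.60 (SE 0.23, interval 0.08 to 1.12). Its unadjusted p in edgeR's quasi-likelihood test was 0.0275 and its adjusted p 0.931. It was therefore not called. Without null F2, the highest embryo, the log2 fold change was 0.40, the lowest of all settings tried.

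None of the 7 members was called between null and Nanog-bearing embryos, where 2 of 12965 genes, or 0.0154%, were. At an unadjusted p under 0.05 stood 1 member (Sfn) and 644 genes. DESeq2 called 87 genes and limma voom 0, and neither called a member. The members' median log2 fold change was 0.30, against -0.05 over all tested genes. In the same fit Nanog itself was lower in the nulls by a log2 fold change that came to -7.61, with an SE of 0.51 and an adjusted p of 0.000501. The biological coefficient of variation was 0.979 in the fit of embryos and 0.346 in that of lines. The kits differ and line counts were summed over 2 passages, so these values do not compare embryos with lines. The authors' deposited table of 78 Nanog-regulated genes, 71 marked down and 7 up, lists 0 of the 7 members.

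The other members spread widely among the null embryos. Ywhab held 112, 212.5, 152 and 224 CPM in null F1, F2, M1 and M2, 127 and 119 CPM in the heterozygous and 108 and 122.5 CPM in the wild-type embryos, female first. Ywhaq held 852, 1309, 704 and 1452 CPM in the same nulls, 708 and 902 CPM in the heterozygous and 700 and 727 CPM in the wild-type embryos. In both genes null F2 and M2 stood above every Nanog-bearing embryo. Null M1 did so for Ywhab alone and null F1 for neither. The log2 fold changes were 0.68 for Ywhab (SE 0.31, interval -0.0044 to 1.37) and 0.66 for Ywhaq (SE 0.30, interval -0.0075 to 1.32), with unadjusted p of 0.0512 and 0.0522 in edgeR and an adjusted p of 0.931 for each.

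Ywhag ran the other way in the same embryos. It held 335, 209, 383 and 148 CPM in null F1, F2, M1 and M2, 326 and 345 CPM in the heterozygous and 256 and 330 CPM in the wild-type embryos. Null F2 and M2 lay below every Nanog-bearing embryo and null M1 above them all. The log2 fold change was -0.13 (interval -0.79 to 0.52).

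The summed trophectoderm markers separated the same embryos. Their sum was 8154, 2866, 9395 and 3252 CPM in null F1, F2, M1 and M2, 6185 and 6933 CPM in heterozygous and 8861 and 8588 CPM in wild-type embryos. Null F2 and M2 thus lay lowest. On average Krt18 and Krt8 made up most of this sum. They averaged 3145 and 1679 CPM in null, 3600 and 2120 CPM in heterozygous and 4884 and 2709 CPM in wild-type embryos. Eomes, at 88.6, 58.1 and 38.5 CPM in the same groups, was highest in nulls, as was Tcfap2c. Cdx2 and Elf5 averaged lowest in nulls, and Gata3 and Krt7 lay between the other groups. The sum therefore says little about the other genes of that set. In null F2 and M2 Sfn was at 1744 and 1227 CPM, the F2 value being the highest of all embryos. The part of the marker levels in the values of Sfn, Ywhab, Ywhaq and Ywhag was not tested.

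Ywhae, Ywhah and Ywhaz completed the family in embryos. Ywhae held 1349, 1447, 1139 and 1311 CPM in null F1, F2, M1 and M2, 1334 and 1161 CPM in the heterozygous and 1070 and 1068 CPM in the wild-type embryos. Every null exceeded both wild-type embryos, but both heterozygous embryos lay among the nulls, and the log2 fold change was 0.30 (interval -0.15 to 0.76). Ywhaz held 1540 to 1646 CPM in null embryos, 2195 and 1594 CPM in heterozygous and 1262 and 1597 CPM in wild-type embryos. Its log2 fold change was 0.07 (interval -0.42 to 0.56), and both the highest and the lowest embryo carried Nanog. Ywhah held 93.7, 95.4, 153 and 138 CPM in null F1, F2, M1 and M2, 118 and 98.8 CPM in heterozygous and 110 and 112 CPM in wild-type embryos. Its 2 female nulls were the lowest embryos and its 2 male nulls the highest, with a log2 fold change over both sexes of 0.21 (interval -0.42 to 0.84).

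**Figure D4:**
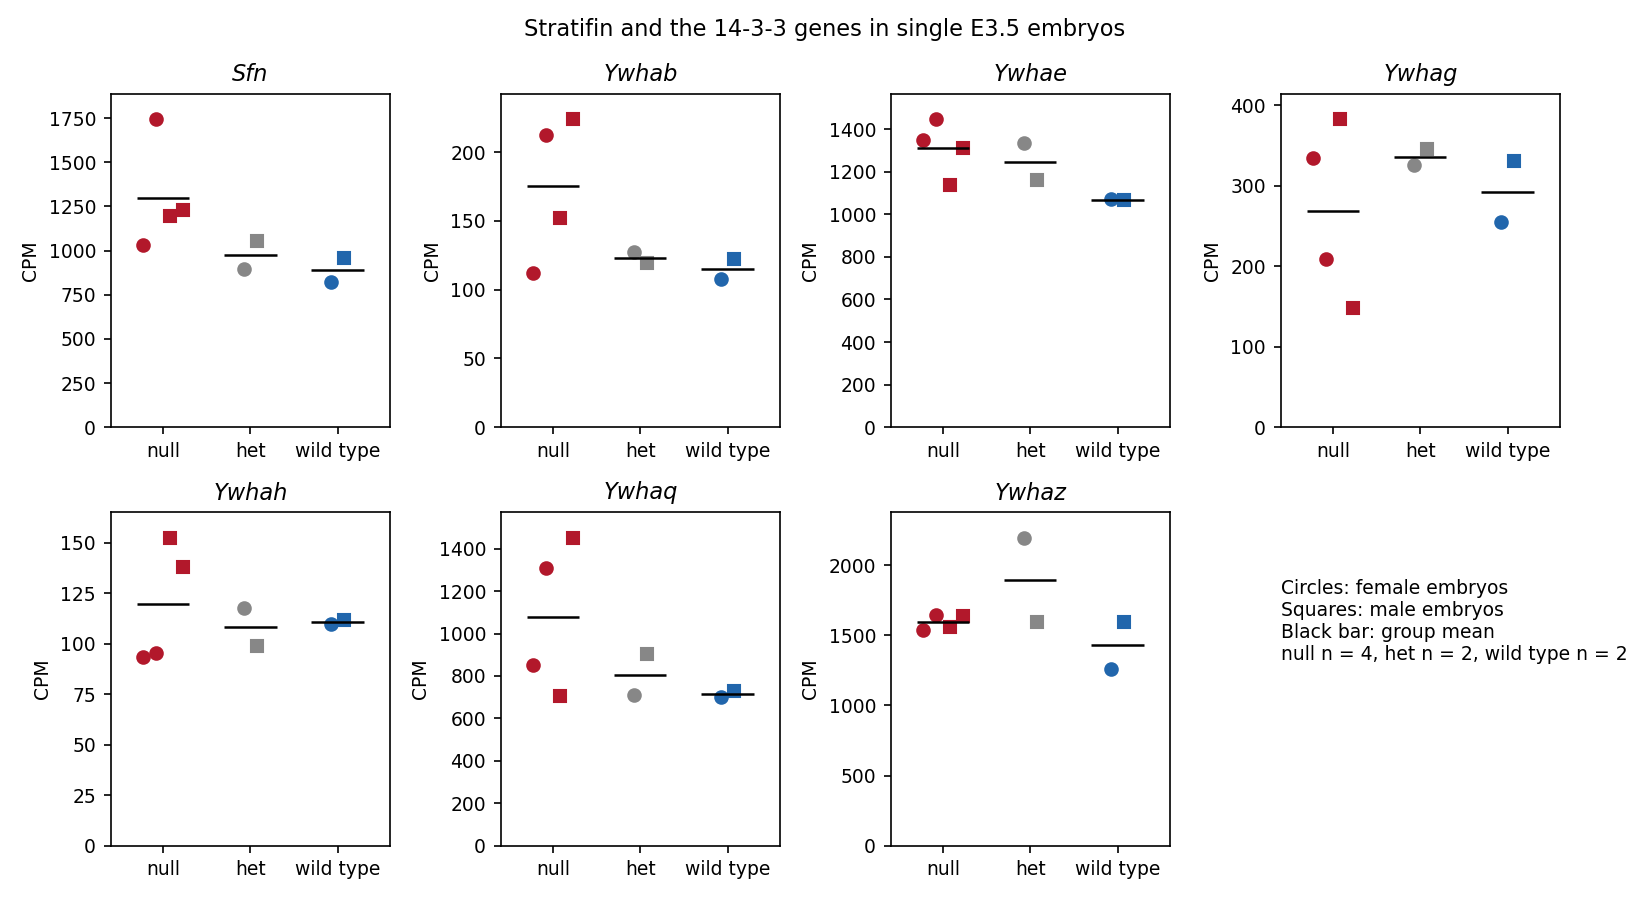
CPM of the 7 members in each E3.5 embryo (circles female, squares male), by genotype with null, heterozygous and wild-type embryos from left to right; black bars are group means. Sfn averaged 1299 CPM in null, 974 CPM in heterozygous and 889 CPM in wild-type embryos, with single nulls between 1031 and 1744 CPM.

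The clients and kinases of the 14-3-3 system were counted from lists written from general knowledge, but with earlier results of these data known. Of 30 client genes, 0 were higher and 10 lower in ES against TS, 1 was higher and 9 lower in ES against XEN, and 2 were higher and 6 lower in TS against XEN. Over all genes 20.0% were higher and 21.3% lower in ES against TS, 23.4% and 21.8% in ES against XEN, and 20.3% and 16.4% in TS against XEN. The medians were -0.29, -0.32 and -0.15 log2 units, against -0.02, 0.05 and 0.02 over all genes. Ndel1, whose protein organises dynein, held 46.1 ± 3.69 CPM in ES, 86.3 ± 5.52 CPM in TS and 89.6 ± 0.21 CPM in XEN lines. Its log2 fold change was -0.97 in ES against TS (SE 0.17, adjusted p = 0.00447 in edgeR) and -1.32 in ES against XEN (SE 0.18, adjusted p = 0.00135 in edgeR). Braf, a RAF kinase, was highest in XEN, with 45.1 ± 2.90 CPM in ES, 44.0 ± 5.85 CPM in TS and 103 ± 22.6 CPM in XEN lines. Its log2 fold change was -1.57 in ES against XEN and -1.54 in TS against XEN, with adjusted p of 0.00113 and 9.52e-04 in edgeR. Irs2, an adaptor of the insulin receptor, was lower in ES against TS by a log2 fold change of -1.68 and against XEN by -2.03, with adjusted p of 0.00697 and 0.00344 in edgeR.

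Of 19 kinases, 5 were higher and 5 lower in ES against TS, 3 higher and 7 lower in ES against XEN, and 3 higher and 5 lower in TS against XEN. The shares over all genes given for the clients hold here too, and the counts of kinases do not stand out from them. Akt1, which phosphorylates BAD and FOXO factors at 14-3-3 docking sites, held 46.9 ± 0.68 CPM in ES lines, against 221 ± 55.3 CPM in TS lines. Its log2 fold change in ES against TS was -2.31 (SE 0.27, adjusted p = 9.56e-04 in edgeR). Sgk1, a related kinase, ran the opposite way with 355 ± 24.5 CPM in ES, 25.8 ± 10.4 CPM in TS and 188 ± 85.3 CPM in XEN lines, and log2 fold changes of 3.70 in ES against TS and -3.09 in TS against XEN (adjusted p of 9.17e-04 and 0.00153 in edgeR). Lats2, the kinase that marks YAP for 14-3-3 binding, held 13.2 ± 3.38 CPM in ES lines, against 53.6 ± 6.63 CPM in XEN lines (log2 fold change -2.40, SE 0.26, adjusted p = 4.76e-04 in edgeR).

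A list of the p53 family, its targets and regulators of Sfn holds 26 genes, of which 25 were tested in the lines. In ES against TS, 4 were higher and 6 lower. In ES against XEN, 6 were higher and 4 lower, and in TS against XEN, 8 were higher and 3 lower. Over all genes 20.0% and 21.3%, 23.4% and 21.8%, and 20.3% and 16.4% were higher and lower in these pairs. Trp53 itself held 341 ± 7.19 CPM in ES, 233 ± 14.2 CPM in TS and 71.1 ± 11.7 CPM in XEN lines. Its log2 fold change was 1.96 in ES against XEN (SE 0.19, adjusted p = 3.21e-04 in edgeR) and 1.48 in TS against XEN (SE 0.18, adjusted p = 9.34e-04 in edgeR). Perp, a p53 target of desmosomes, held 9.47 ± 2.00 CPM in ES, 325 ± 71.6 CPM in TS and 4.85 ± 1.08 CPM in XEN lines, with a log2 fold change of -5.16 in ES against TS and 5.84 in TS against XEN (adjusted p of 9.60e-05 and 5.22e-05 in edgeR). Klf4, an epithelial and naive pluripotency factor, was lowest in TS with 731.5 ± 34.9 CPM in ES, 10.4 ± 2.49 CPM in TS and 162 ± 2.81 CPM in XEN lines. Klf4 gave a log2 fold change of 6.07 in ES against TS and -4.30 in TS against XEN, with adjusted p of 2.39e-05 and 5.71e-05 in edgeR.

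Of the 26 genes of a trophectoderm and epithelial list, 0 were higher and 21 lower in ES against TS, 9 higher and 5 lower in ES against XEN, and 18 higher and 0 lower in TS against XEN. Over all genes 20.0% were higher and 21.3% lower in the first pair, 23.4% and 21.8% in the second and 20.3% and 16.4% in the third. The list was written with trophectoderm in mind and includes all 8 trophectoderm markers used above, so its direction is no independent evidence. Cdh1, the epithelial cadherin, held 370 ± 38.1 CPM in ES, 796 ± 34.7 CPM in TS and 5.48 ± 0.15 CPM in XEN lines. Cdh1 gave a log2 fold change of 5.76 in ES against XEN and 6.94 in TS against XEN, with adjusted p of 1.61e-05 and 1.17e-05 in edgeR. In embryos no gene of the 4 lists was called, of 27, 18, 23 and 25 tested in the order given here. The smallest unadjusted p among the clients was that of Bad, with 141 ± 39.1 CPM in null embryos (n = 4), 79.6 ± 4.54 CPM in heterozygous (n = 2) and 85.4 ± 13.0 CPM in wild-type embryos (n = 2). In null against Nanog-bearing embryos Bad gave a log2 fold change of 0.91, with an SE of 0.32 and an adjusted p of 0.931 in edgeR. In the other lists the smallest unadjusted p belonged to Prkaa1, a subunit of AMP-activated kinase (log2 fold change 1.22), Pmaip1, a p53-induced killer protein (-4.31), and Dsp, a desmosome protein (-1.17), each with an adjusted p of 0.931.

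The genes whose level over the 7 lines ran most like that of Sfn were found by the root mean square difference of centred log2 CPM. Over the 8769 genes that averaged 3 log2 CPM or more, the median difference from Sfn was 3.98 log2 units. The 5 closest were Cyba (0.56), Ly6e (0.60), Tcfap2c (0.64), Plcg2 (0.79) and Cldn4 (0.81). Cyba, a subunit of the phagocyte NADPH oxidase, held 23.5 ± 12.1 CPM in ES, 70.5 ± 27.2 CPM in TS and 0.0256 ± 0.0362 CPM in XEN lines. Tcfap2c, the AP-2 gamma factor of trophectoderm, held 42.5 ± 5.35 CPM in ES, 344 ± 68.0 CPM in TS and 0.121 ± 0.0793 CPM in XEN lines. Cldn4, a claudin of tight junctions, held 180 ± 25.0 CPM in ES, 911 ± 136 CPM in TS and 0.409 ± 0.266 CPM in XEN lines. All 5 shared the order of TS above ES above XEN. For this measure 2 counts were added to each library before the log. In XEN lines, where Sfn had 2 to 5 counts a library, the likeness therefore depends on that addition. The likeness rests on 7 lines of 3 lineages and is a description.

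**Figure D5:**
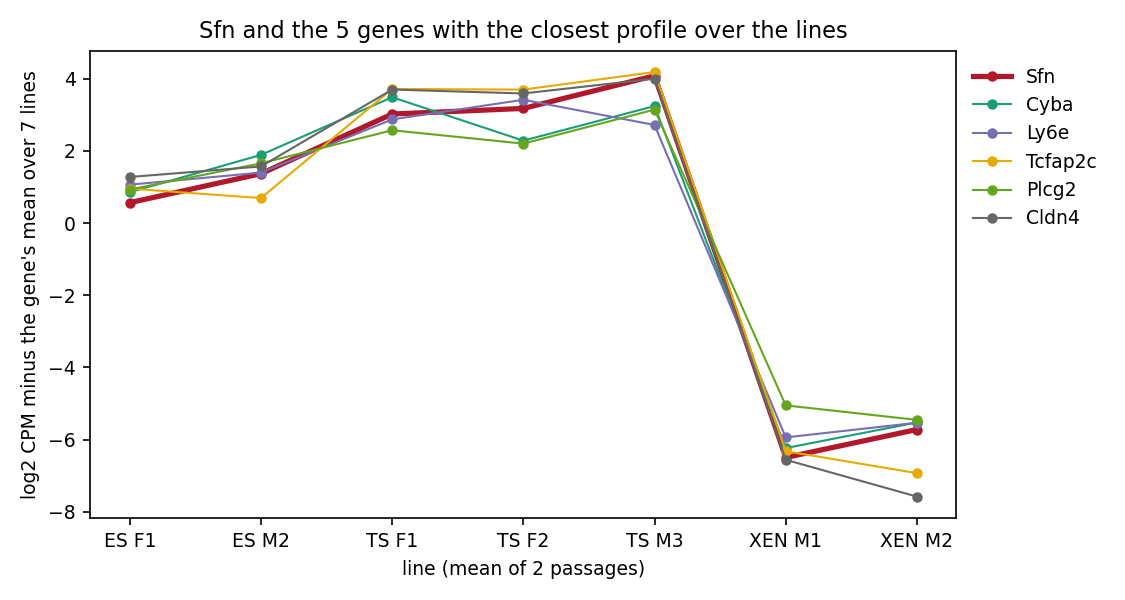
Level of Sfn (thick red) and of the 5 genes closest to it in each of the 7 lines. Values are log2 CPM, with 2 counts added before the log, minus the gene's own mean over the lines. All 6 are highest in TS lines, lower in ES lines and lowest in XEN lines; the root mean square differences from Sfn are 0.56 to 0.81.

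Some reads of these genes could have come from elsewhere. Of all 36-base stretches in its transcripts, Sfn shared 22.9% with transcripts of other annotated genes, most of them with the processed pseudogene Gm7850. The shares were 31.3% in Ywhaq, 16.0% in Ywhaz, 10.9% in Ywhah, 0.216% in Ywhag, 0.12% in Ywhab and 0 in Ywhae, and no such stretch was shared between members. No source used here states how reads that match several places were counted, so the levels of Sfn, Ywhaq, Ywhaz and Ywhah are uncertain to that extent.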

How the data were processed

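The authors deposited raw counts per gene symbol for the 22 libraries, 2722 symbols being 0 in all. The submitters' processing notes name TopHat 1.3.1, edgeR without a version and the mm9 build. No source used here names the counting program, its annotation or whether strand was used. A second table deposited by the authors is of the kind other and holds gene names with a direction word, UP or DOWN, and its 22 value columns have no stated unit and were not used.

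CPM were computed on the total of all symbols. Embryos were fitted in edgeR 4.0.16 (R 4.3.3; TMM, filterByExpr, robust quasi-likelihood test) with genotype and sex as terms, as null against the mean of wild type and heterozygous. The counts of the 2 passages of a line were summed, and the 7 lines were fitted by lineage. P-values were adjusted by Benjamini-Hochberg over all tested genes, and SEs were taken as the size of the log2 fold change over the square root of F. Alternatives were DESeq2 1.42.0, limma 3.58.1 voom with quality weights, RLE size factors, no filter, other terms and leaving out each embryo or line. The script was tested on simulated data. Exon lengths were unions of annotated exons.

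The members and lists were chosen with earlier results of these data known. All 7 members, the 5 genes most like Sfn and up to 3 called genes by smallest p of each of 4 lists were eligible to be named, with 1 gene where none was called. Members of the 6 marker lists are given mainly as sums, and some are named singly, outside this rule, to show what a sum held. Older symbols were matched through RefSeq synonyms.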

Additional observations from a re-analysis of the deposited data

Results flagged for a closer look

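Ywhag held 726 CPM in one passage of TS line M3, against 553 to 615 CPM in the other 5 TS libraries. Its gap to the nearest library was 0.64 of the range, above Dixon's critical value of 0.625 for 6 samples, which it passed narrowly. The 6 libraries are 2 passages each of 3 lines and not independent, so that value is only a rough guide. With 28 groups examined, chance flags about 1 in 20. The other passage of that line held 615 CPM.

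Ywhah differed between the sexes in how null embryos stood to Nanog-bearing ones. It averaged 94.5 CPM in the 2 female nulls, against 114 CPM in the 2 Nanog-bearing females. It averaged 145 CPM in the 2 male nulls, against 105 CPM in the 2 Nanog-bearing males. Every female null lay below and every male null above its own sex. In a test added after seeing the data, the interaction of null status and sex in edgeR was 0.83 log2 units (SE 0.44, unadjusted p = 0.0926, adjusted p = 1.00) and did not pass. No member passed that interaction test, in which 0 of 12965 genes were called.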

How the results depend on the processing

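Sfn kept its direction and its call in all 3 pairs of lineages under every alternative run, and Ywhab likewise in ES against TS and ES against XEN. With 1 line left out, the log2 fold change of Sfn was -2.99 to -2.12 in ES against TS, 6.97 to 8.17 in ES against XEN and 9.55 to 10.76 in TS against XEN. Between null and Nanog-bearing embryos 0 members were called under every alternative run, including one chosen after seeing the data that left out null embryos F1 and M2 together, where the log2 fold change of Sfn was 0.72. With 1 TS line left out, 2 to 4 members were called in ES against TS and 1 to 3 in TS against XEN. Over all genes those fits called 4961 to 6145 in the first pair, against 6063 in the main fit. They called 4270 to 5798 in the second pair, against 5385. With sex as a term, 1 member was called in TS against XEN, where 4212 of 14687 genes were. A lineage left with 1 line was assumed to vary like the others. The cause of these losses was not tested.

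Values near 0 changed sign. Ywhag in ES against TS was 0.061 under limma voom and -0.0788 to 0.0906 with 1 line left out. With 1 embryo left out, Ywhag was -0.338 to 0.0674 and Ywhaz -0.0958 to 0.268 in null against Nanog-bearing embryos. Ywhah was -0.0539 to 0.344 in TS against XEN with 1 line left out. The median over all genes was -0.19 in the embryos under limma voom and 0.10 in ES against XEN under DESeq2.

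The replicate numbers of libraries did not pair the lines (21 pairs, correlations of deviations -0.37 to 0.15, median 0.0007). A replicate block on unsummed libraries called 4 members in ES against TS, 3 in ES against XEN and 3 in TS against XEN, as many as without it. Over all genes it called 8025, 8215 and 7275 of 13759 in these pairs, against 6063, 6630 and 5385 of 14687 without it. It took passages of 1 line as replicates, which they are not, so its p-values are too small and it is no independent check. In embryos, whose replicate names are sexes, no paired analysis was possible because sex was already a term. Without that term the log2 fold change of Sfn was 0.60. Depth limits Sfn in XEN lines, at 2 to 5 counts a library.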
